A study of Mus musculus with 12 samples.

Results

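Heat shock proteins and cytosolic chaperones are the proteins that fold new polypeptides, hold or refold damaged ones and keep signalling proteins in an active shape. The set described here is a list of 42 genes, chosen by symbol, and 37 of them had a named probe set among the 19505 genes of the array. The other 5, Hsp90ab1, Hspa8, Dnaja1, Dnajb5 and Hsf1, were not analysed here. Each of the 37 had 1 probe set, and all 37 passed the filter that left out the dimmest 30% of genes, so that they stood among 13653 genes tested.

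The arrays measured RNA of mouse myocardium in 3 groups of 4 mice, and the question was how diabetes, and long angiotensin IV infusion in diabetes, change gene expression in the heart. Control mice (NC) received vehicle by intraperitoneal injection for 5 days. Diabetic mice (DM) received streptozotocin, a toxin of the insulin-producing beta cells, for 5 days, and had a fasting glucose of at least 16.7 mM 2 weeks later. Treated diabetic mice (AngIV) had the same induction and were then infused with angiotensin IV, a peptide made from angiotensin II, between the ends of week 8 and week 24, with a daily dose of 2.88 mg/kg. The tissue was labelled 6 months in all groups. The strain and sex are not given in the sources used here, no allele or transgene is named, and no vehicle infusion is named for DM or NC mice. The groups follow the sample titles, since the disease state tag contradicts them, with diabetes given for NC and negative control for AngIV.

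In muscle and other cells, HSP70 proteins bind unfolded stretches, J-domain proteins (HSP40) deliver them and stimulate the ATPase of HSP70, and exchange factors release them. HSP90 then matures kinases and steroid receptors with a set of cochaperones, and small heat shock proteins, which are abundant in the heart, hold unfolded proteins without using ATP. The factor HSF1 switches on the inducible members by binding heat shock elements, inverted repeats of GAA in their promoters, and the chaperonin CCT folds actin and tubulin.

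Promoter windows of 31 of the 37 genes were found in RefSeq (build GRCm38.p6), each running from 250 bases before to 50 bases after the start of transcription. No window was found for Hsp90aa1, St13, Hspb2, Cryab, Hspa9 and Cct4, so these genes were not searched. A match to the 2-unit heat shock element, GAANNTTC or TTCNNGAA on either strand, was in the windows of 16 of the 31 genes (51.6%), and 17.0% of the 27025 genes with a window held it. The 3-unit element, which carries 1 more unit in turn after any 2 bases (GAA, TTC and GAA, or TTC, GAA and TTC) and so contains the 2-unit one, was in the windows of 5 of the 31, Chordc1, Hsph1, Hspd1, Hspe1 and Dnajb6, against 0.662% of all genes. A match is a description of the letters in the window and not a measured binding site. The 4 windows below run from 150 bases before to 30 bases after a start. Chordc1 and Hsph1 are shown because they hold a 3-unit element and had lower means in DM and AngIV than in NC. They also stood among the members with the smallest p-values, but holding the element was part of the choice. Hspe1 is shown because it faces Hspd1 across the same sequence, and Hspb1 because it fell in AngIV against NC. The capitals mark 3-unit elements in Chordc1, Hsph1 and Hspe1 and 2-unit elements in Hspb1.
Chordc1: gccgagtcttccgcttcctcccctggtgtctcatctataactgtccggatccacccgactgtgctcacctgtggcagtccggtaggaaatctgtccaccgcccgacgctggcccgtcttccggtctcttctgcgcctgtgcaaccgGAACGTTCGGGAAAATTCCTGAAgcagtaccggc
Hsph1: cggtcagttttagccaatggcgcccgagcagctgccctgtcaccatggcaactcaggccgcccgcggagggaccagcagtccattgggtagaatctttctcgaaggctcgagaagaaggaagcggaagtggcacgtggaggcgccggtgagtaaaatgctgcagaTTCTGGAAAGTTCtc
Hspe1: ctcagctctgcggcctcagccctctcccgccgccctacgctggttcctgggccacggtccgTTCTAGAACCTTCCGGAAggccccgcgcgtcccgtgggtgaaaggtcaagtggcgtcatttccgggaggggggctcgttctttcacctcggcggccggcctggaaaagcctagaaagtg
Hspb1: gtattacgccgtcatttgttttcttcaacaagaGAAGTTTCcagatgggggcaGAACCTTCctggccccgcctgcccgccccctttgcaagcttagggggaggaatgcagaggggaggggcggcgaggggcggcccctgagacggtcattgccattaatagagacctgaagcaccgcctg

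The windows shown lie at chr9:18292117-18292296 (plus strand) for Chordc1, chr5:149636286-149636465 (minus strand) for Hsph1, chr1:55087998-55088177 (plus strand) for Hspe1 and chr5:135887769-135887948 (plus strand) for Hspb1. The 300-base windows of Hspe1 and of a start of Hspd1 on the other strand share 285 bases. Those of Hspa1a and Hspa1b, near-identical copies whose probe sets may not tell them apart, differ at 4 of 300 bases. Both genes of each pair were counted in the shares with an element above, although their windows are largely the same sequence. The 5 genes with a 3-unit element had changes of both signs in DM against NC. Hsph1 had a log2 change of -0.58 ± 0.21 and Chordc1 -0.50 ± 0.14, whereas Hspe1 had -0.15 ± 0.12, Hspd1 -0.04 ± 0.10 and Dnajb6 0.07 ± 0.10 (change ± standard error, SE), none of them called.

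Values are log2 signals as deposited, so a difference of 1 is a doubling of signal, and a gene was called at a limma adjusted p under 0.05 over all 13653 genes. Background was set at the 95th percentile of signal over negative control probe sets, which lay between 5.39 and 5.60 on the 12 arrays. In all, 30 of the 37 genes had group means above it in every group. No fold is given for the other 7, Hspa1a, Hspa1b, Hspa1l, Hspa2, Hspb3, Ptges3 and Dnajb1. Array correlations ran from 0.961 to 0.986 within groups and from 0.962 to 0.984 between them. The samples were heart muscle by their markers, with 12 of 12 cardiomyocyte genes above the negative controls in each group and a mean of 11.07 to 11.25 on every array. The atrial list of 8 genes varied between arrays, with an array mean of 5.06 to 7.68 in NC, 4.78 to 7.39 in DM and 5.13 to 5.37 in AngIV, and the atrial light chain gene Myl7 stood above the negative controls on NC replicates 1 and 3 and DM replicates 1, 2 and 4. Of the other lists, endothelial genes (6 of 6 above the negative controls) had array means of 7.92 to 8.35, and fibroblast genes (7 of 7) 6.92 to 7.59 in NC, 6.99 to 7.22 in DM and 6.60 to 7.09 in AngIV. Macrophage genes (5 of 7 in NC, 6 of 7 in DM and AngIV) had 6.05 to 6.32, 6.03 to 7.19 and 6.11 to 6.87. Smooth muscle genes (3, 2 and 3 of 4) had 5.41 to 8.10, 5.32 to 6.10 and 5.81 to 6.57, skeletal muscle genes (2 of 8 in each group) 4.67 to 5.13 over all arrays, the 1 red blood cell gene 5.19 to 6.20, and 0 of 4 adipocyte genes stood above the negative controls. In whole tissue, fewer cells of a type and less RNA per cell cannot be told apart.

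The control arrays were not alike in chaperone signal. NC replicate 3 or 4 was the highest NC array for 34 of the 37 genes (91.9%), and for 51.3% of all genes tested. Among all 12 arrays, the highest value was on NC replicate 3 for 11 genes and on NC replicate 4 for 11, together 59.5% of the members against 19.4% of all genes. Averaged over the 37 genes, the deviation from each gene's mean was -0.04, -0.06, 0.16 and 0.21 on NC replicates 1 to 4, -0.10 to 0.04 on the DM arrays and -0.06 to 0.02 on the AngIV arrays. NC replicates 1 and 2 lay within the range of the diabetic arrays. The negative control percentile was lower on NC replicates 3 and 4, at 5.40 and 5.39, than on replicates 1 and 2, at 5.57 and 5.55, and its part in the pattern was not tested. The mean of the atrial list was 7.68, 5.34, 6.42 and 5.06 on NC replicates 1 to 4, and its part was not tested either.

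**Figure D1:**
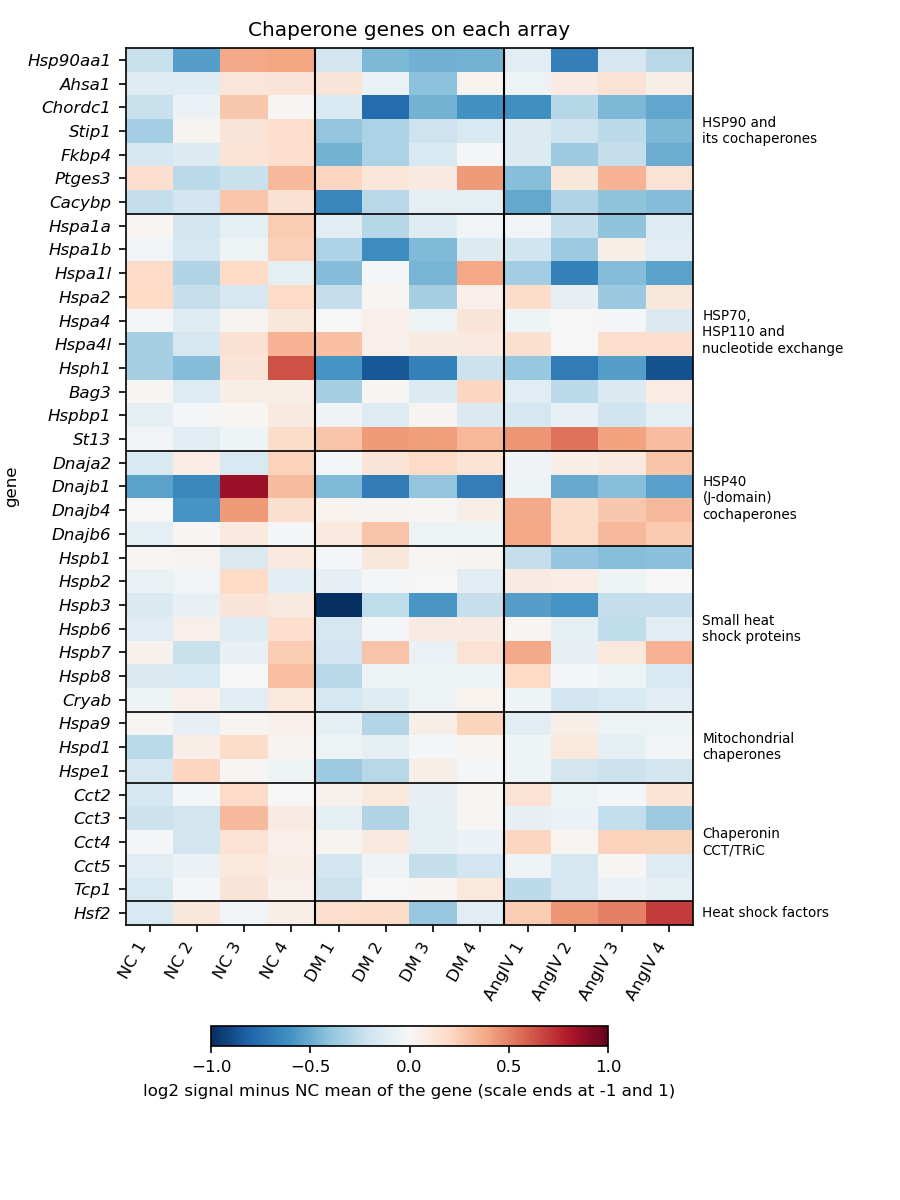
Log2 signal of each of the 37 chaperone genes minus its NC mean, on the 12 arrays, ordered by role; red is above and blue below the NC mean, and colours end at -1 and 1. NC replicates 3 and 4 hold the highest NC value for 34 of 37 genes, and the St13 row is above its NC mean on all 8 diabetic arrays.

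The effect of diabetes alone was read from DM mice set against NC mice. Hsph1, Hspb3, Dnajb1 and Chordc1 had the lowest changes, from -0.58 to -0.50, and St13 the highest, 0.36, but no member was called. The mean of Hspb3 was below the negative controls in every group, and that of Dnajb1 in DM and AngIV. Of the 37 genes 0 were called, where 0.0220% of all genes were, and the smallest adjusted p was 0.176 (limma). At an unadjusted p under 0.05, 6 of 37 were lower (16.2%), against 5.08% of all genes, and 1 was higher (2.70%), against 5.62%. Hspb3, Dnajb1 and Hspa1b, all near background, were among the 6 lower genes. A negative change was seen in 27 of 37 (73.0%), against 50.4% of all genes. The median change was -0.07, against 0.00 over all genes, and it was -0.04 without NC replicate 3, -0.04 without NC replicate 4 and -0.12 without DM replicate 4. No fit left out NC replicates 3 and 4 together. Averaged over the members, NC replicates 1 and 2 deviated by -0.04 and -0.06, within the DM range of -0.10 to 0.04. NC replicates 3 and 4, at 0.16 and 0.21, lay above that range. The groups did not overlap for St13, which was higher, and for Hspb3, which was lower, where 2.84% and 2.45% of all genes did so, 5.30% together.

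Among HSP90 and its cochaperones, 6 of 7 genes had a negative change in DM against NC, with a median of -0.27. Hsp90aa1, the stress-inducible HSP90, read 7.23, 6.90, 7.82 and 7.85 on NC replicates 1 to 4, 7.27, 6.998, 6.97 and 6.98 in DM and 7.34, 6.77, 7.28 and 7.17 in AngIV. NC replicates 3 and 4 were high and the other NC arrays lay among the diabetic ones, so the groups overlapped. Its log2 change was -0.40 ± 0.19 (SE; limma adjusted p = 0.492), and between -0.58 and -0.26 with single arrays left out.

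Chordc1 encodes an HSP90 cochaperone with zinc-binding CHORD domains, and its promoter held 3 overlapping 3-unit elements. It read 6.41, 6.58, 6.90 and 6.65 in NC, 6.48, 5.86, 6.17 and 6.03 in DM and 6.02, 6.35, 6.19 and 6.11 in AngIV. Only DM replicate 1 reached into the NC range, and all 4 AngIV arrays lay below it. Its mean was 1.41-fold lower in DM (log2 change -0.50 ± 0.14, limma adjusted p = 0.208) and 1.38-fold lower in AngIV than in NC (-0.47 ± 0.14, adjusted p = 0.0867), neither called.

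Stip1, which encodes the adaptor HOP between HSP70 and HSP90, read 6.52, 6.89, 6.99 and 7.04 in NC, 6.46, 6.55, 6.65 and 6.71 in DM and 6.73, 6.66, 6.60 and 6.41 in AngIV. NC replicate 1 was low and the other NC arrays lay above all diabetic ones. The log2 change was -0.27 ± 0.12 in DM and -0.26 ± 0.12 in AngIV against NC, and the limma adjusted p was 0.449 and 0.261. The immunophilin gene Fkbp4, whose product helps HSP90 with steroid receptors, had -0.24 ± 0.12 in DM and -0.31 ± 0.12 in AngIV. Cacybp had -0.28 ± 0.14 and -0.41 ± 0.14, while the ATPase activator gene Ahsa1 had -0.08 ± 0.12 and 0.06 ± 0.12, and Ptges3, which encodes p23, 0.21 ± 0.17 and 0.04 ± 0.17. None of these 4 was called against NC in DM or AngIV.

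In the HSP70 group, 7 of 10 genes had a negative change in DM against NC, with a median of -0.10. Hsph1, the HSP110 that exchanges nucleotide on HSP70, read 5.91, 5.82, 6.38 and 6.89 in NC, 5.66, 5.40, 5.57 and 6.03 in DM and 5.87, 5.55, 5.70 and 5.38 in AngIV. NC replicate 4 was far above the rest, and the lowest NC arrays overlapped DM replicate 4 and AngIV replicate 1. Hsph1 was 1.50-fold lower in DM (-0.58 ± 0.21, limma adjusted p = 0.319) and 1.54-fold lower in AngIV (-0.62 ± 0.21, adjusted p = 0.119), the largest differences from NC among the members, and not called. Without NC replicate 4 the changes were -0.37 and -0.41.

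The classical inducible HSP70 genes were near background. Hspa1a read 5.54, 5.33, 5.42 and 5.77 in NC, 5.40, 5.23, 5.39 and 5.48 in DM and 5.48, 5.28, 5.11 and 5.39 in AngIV, and the groups overlapped. Hspa1b read 4.86, 4.71, 4.83 and 5.12 in NC, 4.57, 4.25, 4.44 and 4.74 in DM and 4.68, 4.51, 4.94 and 4.77 in AngIV, with DM lower except for replicate 4. The signal differences between DM and NC were -0.14 ± 0.12 and -0.38 ± 0.13 (limma adjusted p = 0.723 and 0.298). Hspa1l, known for its expression in testis, read 3.89, 3.40, 3.89 and 3.61 in NC, 3.27, 3.69, 3.24 and 4.08 in DM and 3.35, 3.02, 3.26 and 3.16 in AngIV, all below the negative controls.

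St13 encodes HIP, which binds the ATPase domain of HSP70 and slows the release of its client. It read 6.96, 6.88, 6.95 and 7.18 on the NC arrays, 7.27, 7.41, 7.41 and 7.32 in DM and 7.43, 7.53, 7.40 and 7.30 in AngIV. All 8 diabetic arrays lay above all 4 NC arrays. The log2 change was 0.36 ± 0.10 in DM against NC (limma adjusted p = 0.176), which was not called. Bag3, an HSP70 exchange factor that guards muscle filaments through selective autophagy, read 7.88, 7.74, 7.92 and 7.92 in NC, 7.53, 7.88, 7.73 and 8.08 in DM and 7.76, 7.60, 7.72 and 7.94 in AngIV. Its groups overlapped, and its change of -0.06 in DM had a 95% interval from -0.32 to 0.19.

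Of the J-domain genes, Dnajb1, the partner of inducible HSP70, read 5.28, 5.17, 6.68 and 6.13 in NC, 5.38, 5.11, 5.42 and 5.12 in DM and 5.77, 5.31, 5.39 and 5.27 in AngIV. NC replicates 3 and 4 stood above every diabetic array and NC replicates 1 and 2 among them. The signal difference between DM and NC was -0.56 ± 0.26 (limma adjusted p = 0.46), and -0.27 without NC replicate 3. Dnajb6, a suppressor of protein aggregation that is mutated in a limb-girdle muscular dystrophy, read 8.15, 8.25, 8.34 and 8.23 in NC, 8.34, 8.53, 8.20 and 8.20 in DM and 8.63, 8.43, 8.57 and 8.51 in AngIV. The AngIV arrays lay above all NC arrays and above all DM arrays but replicate 2. Dnajb4 and Dnaja2 had changes of 0.03 ± 0.16 and 0.11 ± 0.11 in DM against NC.

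The small heat shock proteins, above the negative controls in each group except for Hspb3, had a median change of -0.05 in DM against NC. Cryab, alphaB-crystallin, which protects desmin and titin in heart muscle, read 11.22, 11.31, 11.16 and 11.37 in NC, 11.09, 11.14, 11.21 and 11.30 in DM and 11.23, 11.07, 11.11 and 11.16 in AngIV. The groups overlapped, and the 95% interval of its change was -0.27 to 0.11 in DM and -0.31 to 0.07 in AngIV against NC. Hspb3, a muscle member that pairs with Hspb2, read 5.27, 5.34, 5.54 and 5.50 in NC, 4.24, 5.16, 4.83 and 5.18 in DM and 4.86, 4.82, 5.17 and 5.18 in AngIV. Every diabetic array was below every NC array, with DM replicate 1 lowest, but the group means lay below the negative controls, and the signal difference of -0.56 ± 0.18 in DM was not called (limma adjusted p = 0.259). Hspb2, Hspb6, Hspb7 and Hspb8 had changes from -0.11 to 0.04 in DM.

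Mitochondrial chaperones and the cytosolic chaperonin differed little between groups. Hspd1, which encodes HSP60, read 9.09, 9.42, 9.54 and 9.38 in NC, 9.30, 9.27, 9.34 and 9.37 in DM and 9.32, 9.47, 9.26 and 9.33 in AngIV. Its lid Hspe1, HSP10, read 8.04, 8.43, 8.23 and 8.17 in NC, 7.85, 7.94, 8.27 and 8.20 in DM and 8.17, 8.03, 8.00 and 8.03 in AngIV. Both overlapped between groups, with 95% intervals in DM against NC of -0.26 to 0.18 and -0.40 to 0.10. The 5 CCT genes had changes from -0.16 to 0.02 in DM and from -0.19 to 0.17 in AngIV against NC, 0 of them at an unadjusted p under 0.05. Cct4 read 8.73, 8.57, 8.90 and 8.81 in NC, 8.78, 8.85, 8.66 and 8.69 in DM and 8.97, 8.77, 8.99 and 8.98 in AngIV, so that 3 of 4 AngIV arrays were above every other array.

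**Figure D2:**
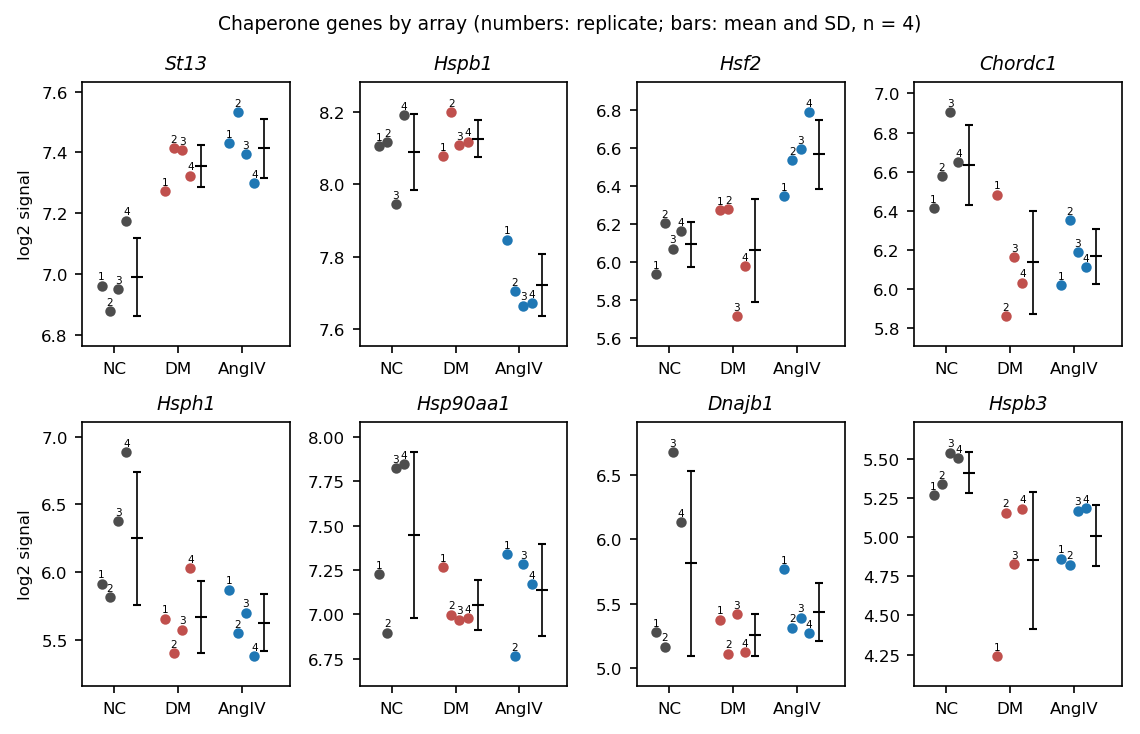
Log2 signal of 8 chaperone genes on each array, with a point per mouse numbered by replicate, and the mean and SD of the group (n = 4) in black; each panel has its own scale. St13 is higher on all 8 diabetic arrays than on all NC arrays, Hspb1 is lower and Hsf2 higher on the 4 AngIV arrays than on all 8 others, and for Hsp90aa1 and Dnajb1 NC replicates 3 and 4 stand apart.

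For the infusion within diabetic mice, AngIV arrays were set against DM arrays. Myl7 stood above the negative controls on DM replicates 1, 2 and 4 and on no AngIV array. Infusion and atrial tissue can therefore not be fully told apart in this comparison. The changes of the members ran from -0.40 for Hspb1 to 0.51 for Hsf2, and none was called. Limma called 0 of 13653 genes (0%), and so 0 members, with 1199 genes, 8.78%, at an unadjusted p under 0.05. Of the 37 genes, 1 was lower at an unadjusted p under 0.05 (2.70%, against 3.51% of all genes) and 2 were higher (5.41%, against 5.27%), shares near those of all genes. A negative change was seen in 18 of 37, against 47.1% of all genes. The groups did not overlap for Hspb1, which was lower, and for Hsf2 and Dnajb4, which were higher, where 2.19% and 3.57% of all genes did so, 5.76% together. The median change was 0.01, and 0.01 over all genes.

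Hspb1 encodes HSP25, the mouse form of HSP27, a small heat shock protein that stabilizes actin filaments. It read 8.11, 8.12, 7.94 and 8.19 in NC, 8.08, 8.20, 8.11 and 8.12 in DM and 7.85, 7.70, 7.66 and 7.67 in AngIV. The 4 AngIV arrays lay below all other arrays, and NC and DM overlapped. Hspb1 was 1.32-fold lower in AngIV than in DM (-0.40 ± 0.09, 95% interval -0.60 to -0.21, unadjusted p = 0.000454), which did not pass over all genes (limma adjusted p = 0.318, and 0.106 to 0.619 over 17 alternatives). The other 6 small heat shock proteins had changes from -0.10 to 0.16 in the same comparison, 0 of them at an unadjusted p under 0.05.

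Hsf2 encodes a heat shock factor that forms trimers with HSF1 and tunes its targets. It read 5.94, 6.20, 6.07 and 6.16 in NC, 6.27, 6.28, 5.72 and 5.98 in DM and 6.35, 6.54, 6.60 and 6.79 in AngIV. Every AngIV array was above every NC and DM array. The mean was 1.42-fold higher in AngIV than in DM (0.51 ± 0.13, limma adjusted p = 0.372) and 1.39-fold higher than in NC (0.47 ± 0.13, adjusted p = 0.0764), neither called. Dnajb6 was the third member at an unadjusted p under 0.05, with 0.22 ± 0.10 against DM (limma adjusted p = 0.555). Signals of Hspa1b and Hspa1l differed by 0.22 ± 0.13 and -0.37 ± 0.17, near background, and Cct4 by 0.18 ± 0.10.

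Treated diabetic mice were then set against the controls. St13 rose and Hspb1 fell, the 2 members called. Of HSP90 and its cochaperones, 5 of 7 had a negative change and 0 were called. In all, 1 of 37 was called higher, where 1.52% of all genes were, and 1 lower, where 0.623% were, 2.15% together. At an unadjusted p under 0.05, 8 were lower (21.6%, against 7.74% of all genes) and 3 higher (8.11%, against 10.9%), where 18.6% of all genes passed in either direction. Of the members, 25 of 37 had a negative change (67.6%, against 49.4%). The median was -0.11, against 0.00 over all genes, -0.06 without NC replicate 4 and -0.07 without AngIV replicate 2. Averaged over the members, NC replicates 1 and 2 deviated by -0.04 and -0.06, within the AngIV range of -0.06 to 0.02. NC replicates 3 and 4 lay above that range. The groups did not overlap for 5 lower genes, Chordc1, Cacybp, Hspa1l, Hspb1 and Hspb3, and 3 higher ones, St13, Dnajb6 and Hsf2, where 5.17% and 7.59% of all genes did so, 12.8% together. Hspa1l and Hspb3 had means below the negative controls in both groups. This comparison shares its NC arrays with the diabetes comparison and its AngIV arrays with the infusion comparison.

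St13 rose 1.34-fold in AngIV against NC (log2 change 0.42 ± 0.10, limma adjusted p = 0.0339, and 0.0127 to 0.208 over 17 alternatives). Hspb1 fell 1.29-fold (-0.37 ± 0.09, limma adjusted p = 0.0485, and 0.0145 to 0.131). Both calls sat close to the threshold, and both were lost without the filter on dim genes (adjusted p = 0.0611 and 0.0798), with the replicate block (0.0764 and 0.0859), with the atrial marker mean as a covariate (0.0612 for each) and without the arrays that held Myl7 (0.208 and 0.131), where the changes were 0.39 and -0.43. Without the arrays that held Myl7, NC replicates 2 and 4 were the NC arrays left. The Hspb1 call was also lost with DM arrays left out of the fit (0.0634). St13 stayed called without NC replicate 4 and lost its call without any other single NC or AngIV array, with an adjusted p between 0.0583 and 0.10. Hspb1 stayed called without NC replicate 3 or AngIV replicate 1 and lost its call without any other single array, at 0.0909 to 0.121. The size moved little, from 0.38 to 0.48 for St13 and from -0.41 to -0.33 for Hspb1 with single arrays left out.

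Among HSP90 and its cochaperones 4 of 7 were lower at an unadjusted p under 0.05 in AngIV against NC. Over all genes 7.74% were. The 4 were Chordc1, Cacybp, Fkbp4 and Stip1, the group median was -0.31, and 0 were called. NC replicates 1 to 4 read 7.32, 7.37, 7.84 and 7.72 for Cacybp and 8.21, 8.24, 8.52 and 8.55 for Fkbp4. NC replicates 3 and 4 were the highest NC arrays for each of the 4 genes. Fkbp4 overlapped between groups, with 8.24 on AngIV replicate 1. The HSP70 group held 2 lower at an unadjusted p under 0.05, Hsph1 and Hspa1l, and 1 higher, St13. J-domain genes had a median of 0.20, with Dnajb6 at 0.29 ± 0.10 (1.22-fold, limma adjusted p = 0.135) and Dnajb1, near background, at -0.38 ± 0.26. Small heat shock proteins held Hspb1 and Hspb3 as lower, the latter at -0.40 ± 0.18 near background. Mitochondrial chaperones had changes from -0.16 to -0.01.

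**Figure D3:**
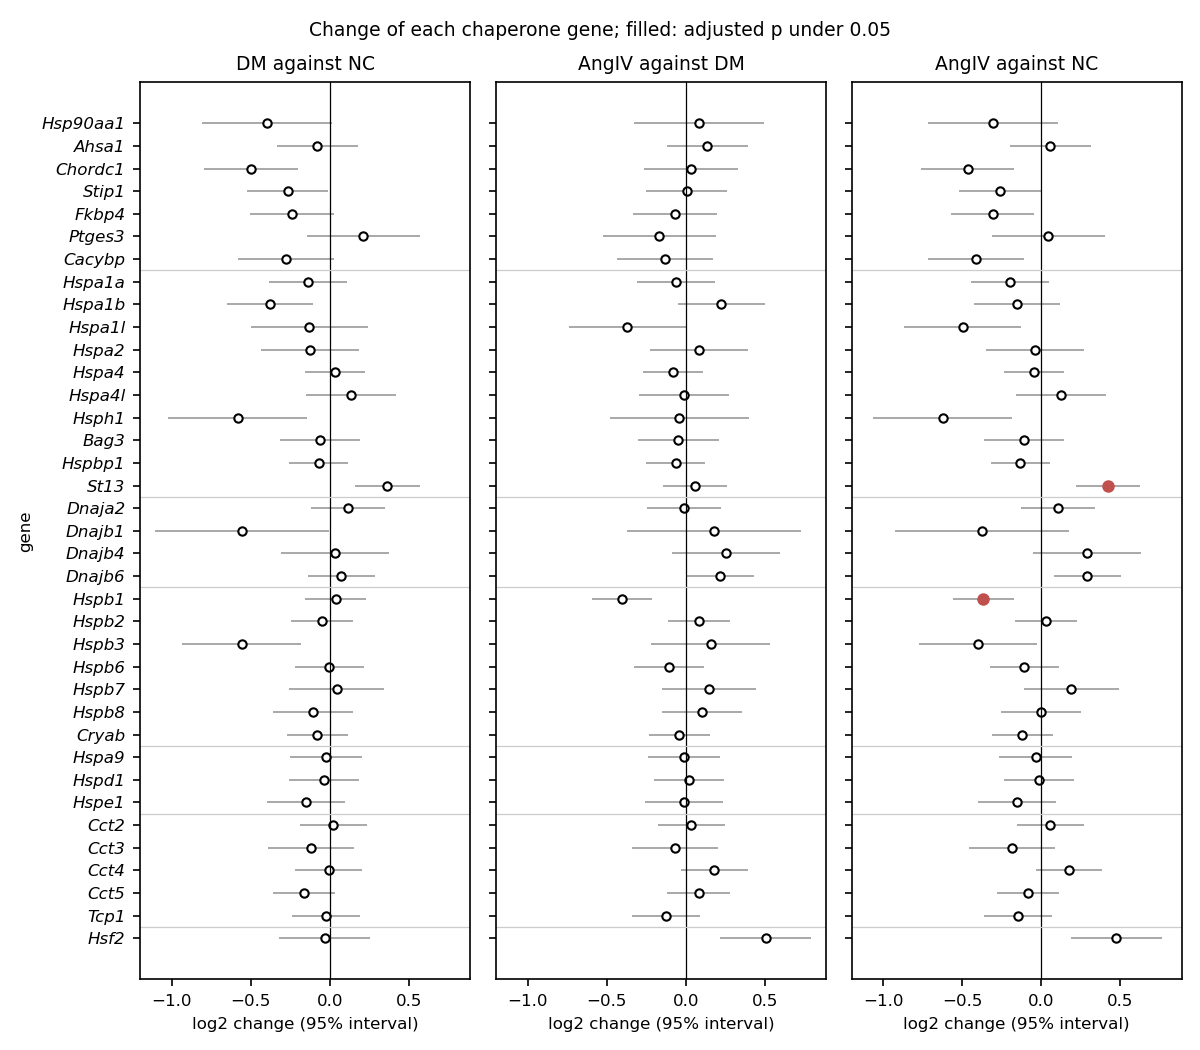
Log2 change of each of the 37 chaperone genes with its 95% interval in the 3 pairwise comparisons, in the order of roles of the heat map; filled red points passed an adjusted p of 0.05. St13 (0.42) and Hspb1 (-0.37) in AngIV against NC are the filled points.

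Taking DM and AngIV as all diabetic mice, against NC, St13 rose by 0.39 ± 0.08 (1.31-fold, limma adjusted p = 0.0318, and 0.0122 to 0.434 over 20 alternatives), where 0.908% of all genes were called higher and 0.410% lower. It was the 1 member called of 37. At an unadjusted p under 0.05, 7 were lower, against 7.33% of all genes, and 1 was higher, against 9.02%, and 27 of 37 had a negative change, against 49.9%. Without overlap, St13 was higher and Hspb3 lower, where 1.44% and 1.09% of all genes were, 2.53% together. Chordc1 (-0.48 ± 0.12, adjusted p = 0.0614) and Hsph1 (-0.60 ± 0.18, adjusted p = 0.101) came next and were not called. Without single arrays St13 was called in 6 of 12 fits, with an adjusted p of up to 0.103, and it was not called without NC replicates 1, 2 or 3, DM replicate 2 or AngIV replicates 2 or 3. These mice are those of the comparisons above, so the value is not separate evidence.

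Other genes of the same systems were taken from a list of 51, of which 45 were tested. In DM against NC 0 of 45 were called, where 0.0220% of all genes were, and in AngIV against DM 0, where 0% were. In AngIV against NC 1 rose and 2 fell, where 1.52% of all genes were called higher and 0.623% lower. The median changes of the 45 were -0.02, 0.01 and -0.01, in that order. The gene that rose, Fkbp5, encodes an HSP90 immunophilin that restrains the glucocorticoid receptor and is itself switched on by it. It read 6.35, 4.88, 5.93 and 5.77 in NC, 8.69, 7.76, 6.02 and 6.24 in DM and 7.64, 8.69, 8.25 and 8.55 in AngIV. DM split, with replicates 1 and 2 at the level of the AngIV arrays and replicates 3 and 4 below NC replicate 1. Fkbp5 rose 5.86-fold in AngIV against NC (2.55 ± 0.48, limma adjusted p = 0.0157), and its call was lost without NC replicate 2 (adjusted p = 0.0515) or AngIV replicate 4 (0.0512). Its mean in DM stood at 1.44 ± 0.48 against NC and was not called (adjusted p = 0.29).

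Hikeshi, which encodes the carrier that brings HSP70 into the nucleus after heat, read 7.08, 7.24, 7.16 and 7.09 in NC, 6.90, 6.85, 7.14 and 7.07 in DM and 6.39, 6.61, 6.60 and 6.59 in AngIV. The AngIV arrays were below all others. Hikeshi fell 1.51-fold against NC (-0.59 ± 0.10, limma adjusted p = 0.00819), and was 1.36-fold lower than in DM (-0.44 ± 0.10, adjusted p = 0.318), which was not called. Serpinh1, or HSP47, a collagen chaperone of the endoplasmic reticulum, read 7.44, 7.36, 7.65 and 7.72 in NC, 7.26, 6.94, 7.13 and 7.15 in DM and 7.22, 6.81, 6.57 and 6.63 in AngIV. All diabetic arrays lay below all NC arrays. It fell 1.66-fold in AngIV against NC (-0.73 ± 0.14, limma adjusted p = 0.0158), with the call lost without AngIV replicate 3 (adjusted p = 0.0553) or 4 (0.0558). The array means of the fibroblast list overlapped between these groups, at 6.92 to 7.59 in NC and 6.60 to 7.09 in AngIV. Within it the collagen gene Col3a1 had a mean of 7.19 in NC and 6.02 in AngIV, and Dcn, which encodes decorin, 10.96 and 11.02. The part of these genes in the Serpinh1 difference was not tested. Without the arrays that held Myl7, the changes of Hikeshi and Serpinh1 were -0.62 and -0.73, and neither was called (adjusted p = 0.0702 and 0.131), while Fkbp5 was still called (2.96, adjusted p = 0.00929).

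For all diabetic mice against NC, 1 of the 45 tested genes of the other chaperone list was called higher, Fkbp5, and 2 lower, Serpinh1 and Hikeshi. Over all genes 0.908% were called higher and 0.410% lower. Without single arrays Fkbp5 and Serpinh1 were each called in 4 of 12 fits and Hikeshi in 2. Some genes of that list with a small p were not called. The J-domain gene Dnajc7 read 6.69 to 7.02 in AngIV and 6.16 to 6.72 in DM, a change of 0.31 ± 0.12 (limma adjusted p = 0.515). Unc45a, a myosin chaperone, had a signal difference of 0.28 ± 0.12 in DM against NC (adjusted p = 0.434), and Hspb11 one of -0.45 ± 0.15 in AngIV against DM (adjusted p = 0.464), both below the negative controls.

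**Figure D4:**
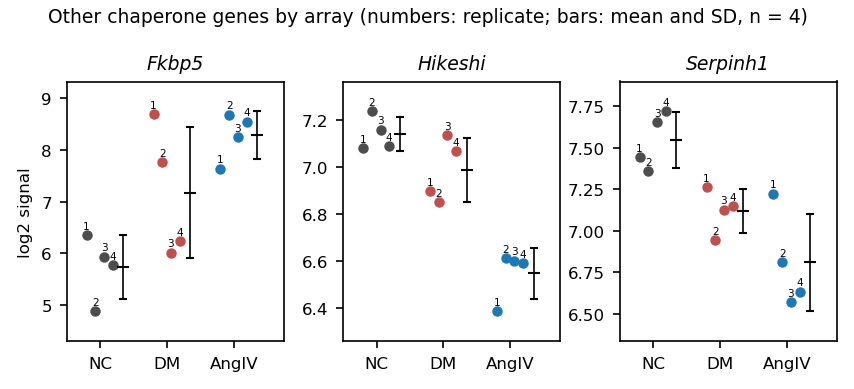
Log2 signal of 3 chaperone genes outside the 37 on each array, with a point per mouse numbered by replicate, and the mean and SD of the group (n = 4) in black; each panel has its own scale. Fkbp5 is high on the 4 AngIV arrays and on DM replicates 1 and 2, Hikeshi is lowest on the 4 AngIV arrays, and Serpinh1 is lower on all 8 diabetic arrays than on all NC arrays.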

How the data were processed

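RNA of 12 mouse hearts (3 groups of 4 mice) was measured on single-colour arrays. RMA, named in the submitters' processing notes, gave the log2 signals that the authors deposited for each probe set. Their values show the log2 scale, and the version, chip file and build are not given in the sources used here. RMA equalizes the distribution of signals between arrays, so a shift in total mRNA cannot be seen. Of 29129 probe sets, 6923 were controls, and 5222 of these were negative controls. Platform annotation named 19572 probe sets and 19505 genes, and all were matched by Entrez ID to RefSeq with 0 symbols changed; for 55 genes with several probe sets the brightest was kept. Genes with a mean under 3.40 (the dimmest 30%) were left out. limma 3.58.1 in R 4.3.3 fitted a mean per group over all 12 arrays, with Benjamini-Hochberg adjustment over 13653 genes. In simulated data with 200 changed genes, the DM against NC fit recovered 94.0% of genes changed by a log2 of 1. The members changed by -0.58 to 0.36 in that comparison, sizes that were not simulated, so recovery at those sizes is not known. The number of arrays limits the precision; the median SE of a member was 0.12.

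The members and lists (roles, other chaperone genes, and markers of cardiomyocytes, atria, fibroblasts, endothelium, macrophages, smooth muscle, skeletal muscle, red blood cells and adipocytes) were chosen with earlier results of these data known. Named members were those called, the 6 with the smallest p in each pairwise comparison, and 13 fixed genes, 10 of them measured. Other chaperone genes were named if called or among the 3 with the smallest p. Alternatives covered the prior, the filter, centring, probe sets, samples fitted, atrial signal, pairing and single arrays. Titles number the mice 1 to 4 in each group; nothing in the labels ties equal numbers to a common litter or day. Promoter sequences are RefSeq's, GRCm38.p6.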

Additional observations from a re-analysis of the deposited data

Results flagged for a closer look

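Over 111 sets of 4 arrays (37 genes in 3 groups), 5 held an array whose gap to the nearest other was above the 95% critical value of Dixon's test for 4 values, where chance gives about 5% of sets. Hsp90aa1 read 7.27 on DM replicate 1 and 6.97 to 6.998 on the other DM arrays. Hspa4l, an HSP110 relative, read 6.98 on DM replicate 1 and 6.73 to 6.77 on the others. On the AngIV arrays Hspa4l read 6.68 on replicate 2 and 6.83 to 6.85 elsewhere. Hspb8, the partner of Bag3, read 8.82 on DM replicate 1 and 9.04 to 9.05 on the other DM arrays. Cct4 read 8.77 on AngIV replicate 2 and 8.97 to 8.99 on the others.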

How the results depend on the processing

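St13 in AngIV against NC kept its direction under all 17 alternatives, and so did Hspb1; each was called under 6. The number of genes called moved more. In DM against NC 3 genes were called, and 29 with a trend in the prior variance, 20 with the dimmest 50% left out, 5 with the atrial marker mean as a covariate, 0 without the arrays that held Myl7 and 5 with only the compared groups fitted; without single arrays it was 3 to 30. In AngIV against DM 0 genes were called, and 0 to 5 without single arrays, with 1 without DM replicate 2 and 5 without AngIV replicate 2. In AngIV against NC 293 were called, and 576 with the trend, 492 with the dimmest 50% left out, 102 without the arrays that held Myl7 and 466 with only the compared groups fitted; without single arrays it was 104 to 251. For all diabetic mice 180 were called, and 433 with the trend, 328 with the dimmest 50% left out, 318 with the covariate and 1 without the arrays that held Myl7, with 49 to 338 without single arrays. Leaving out the Myl7 arrays leaves 1 DM array, replicate 3, assumed to vary like the other groups. It also leaves NC replicates 2 and 4 as the NC arrays, with all 4 AngIV arrays. In calls lost there, fewer arrays and atrial signal cannot be told apart.

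Of the members, 2 were called in AngIV against NC, and 0 without the filter on dim genes, with the covariate, without the arrays that held Myl7 and with the replicate block; without single arrays it was 0 to 1. For all diabetic mice it was 1, and 2 with the trend or the dimmest 50% left out, 0 without the filter, without the Myl7 arrays and with the block, and 0 to 2 without single arrays. In DM against NC and in AngIV against DM 0 members were called under every alternative run. Hsf2 in AngIV against NC was called with the trend (adjusted p = 0.0497) and with only the compared groups fitted (0.0488). Chordc1 for all diabetic mice was called with the trend (limma adjusted p = 0.0314), with the dimmest 50% left out (0.0383) and without DM replicate 1 (0.0325). The cause of these shifts was not tested.

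Mice share only a replicate number: over 12 pairs the correlation of deviations was -0.12 to 0.21, 2 pairs were over 0.1, and 2 of 12 arrays correlated best with their own number. With the replicate number as a block, 218 genes were called in AngIV against NC and 138 for all diabetic mice, and St13 (0.0764) and Hspb1 (0.0859) in AngIV against NC and St13 (0.0724) and Hikeshi (0.0706) for all diabetic mice were not.

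Small differences changed sign, none of them called. Without the arrays that held Myl7, Hspb1 was at -0.046 and Dnajb6 at -0.047 in DM against NC, Hsph1 at 0.051, Stip1 at -0.054 and Bag3 at 0.029 in AngIV against DM, and Hsf2 at -0.042 for all diabetic mice. With the covariate, AngIV against DM gave -0.016 for Chordc1, -0.13 for Stip1 and -0.053 for Hspd1, and Stip1 was at -0.010 with arrays centred. Without single arrays, DM against NC ran from -0.012 to 0.070 for Hspb1, -0.11 to 0.083 for Hsf2, -0.067 to 0.042 for Cct4, -0.13 to 0.024 for Hspd1, -0.15 to 0.029 for Bag3, -0.27 to 0.011 for Hspb11 and -0.11 to 0.073 for Dnajc7. In AngIV against DM it ran from -0.058 to 0.15 for Chordc1, -0.046 to 0.27 for Hspb3, -0.13 to 0.081 for Hsph1, -0.038 to 0.067 for Stip1, -0.12 to 0.0058 for Hspa1a, -0.019 to 0.050 for Hspd1, -0.079 to 0.061 for Hspe1 and -0.14 to 0.045 for Bag3. In AngIV against NC it ran from -0.10 to 0.046 for Hspd1, and for all diabetic mice from -0.12 to 0.035 for Hspd1. Signal over background limits the 7 members near the negative controls.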

Other observations

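The spread between mice of the chaperone genes had the lowest median in AngIV. On the log2 scale, with 4 mice a group, NC had a median SD of 0.17, DM of 0.14 and AngIV of 0.11, where all genes tested had 0.18, 0.17 and 0.15. The largest of the 3 SDs was in NC for 20 of the 37 genes (54.1%, against 41.2% of all genes), in DM for 14 (37.8%, against 35.3%) and in AngIV for 3 (8.11%, against 23.6%). Dnajb1 had the widest spread of the members in NC, with an SD of 0.72, against 0.16 in DM and 0.23 in AngIV. Dnajb4, which read 7.53, 6.94, 7.96 and 7.69 on the NC arrays, had an SD of 0.43 there and of 0.02 in DM.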
